A study of Mus musculus with 2 samples.

Results

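The cells described here are the blood stem and multipotent progenitors of the mouse fetal liver, taken as 572 of 14101 cells that carried transcripts of 3 stem cell genes and few transcripts of later lineages. A cell had to hold at least 3 transcript molecules (unique molecular identifiers, UMIs) of Hlf, Mecom and Adgrl4 together. It could hold at most 2 UMIs of Klf1 (erythroid), and had to hold under 10 of Pf4 (megakaryocyte), under 30 of Mpo and Prtn3 (granulocyte and monocyte), under 4 of Irf8 and Ly86 (monocyte and dendritic), under 4 of Ms4a2, Mcpt8, Gzmb and Fcer1a (mast cell, basophil and cytotoxic), and under 30 of S100a8 and S100a9 (neutrophil). Only barcodes with 1000 or more genes, 2000 or more UMIs and no more than 10% of UMIs from mitochondrial genes were considered, called kept cells below. The gate took 324 of 7001 kept cells in the knockout library and 248 of 7100 in the control library. These 15 genes chose the cells, so their values are a description.

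Both libraries held Lin- c-Kit+ cells of C57BL/6 fetal liver at E14.5, profiled with droplet 3' RNA sequencing. The knockout genotype was CD45.2(+) with Vav1-iCre and Brd9fl/fl, and the control genotype was CD45.2(+) with Brd9fl/fl and no recombinase, so floxed Brd9 and CD45.2 were common to both. Vav1-iCre is a recombinase driven by a promoter active in blood cells, and no library carried it without floxed Brd9, so the transgene and the loss of Brd9 cannot be told apart. There was 1 library per genotype and the sources used here do not give the number of embryos in each. No difference below therefore has a replicate check, no p-value is given, and every interval is a 95% interval that covers counting error only.

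Blood stem cells renew themselves and give rise to multipotent progenitors, which commit step by step to the erythroid, megakaryocytic, myeloid, mast cell and lymphoid lineages. The fetal liver is the main site where they expand before birth, and many are in cycle there. Hlf and Mecom encode transcription factors that mark the most immature cells, and Adgrl4 encodes an adhesion G protein-coupled receptor found on stem cells and endothelium. Brd9 encodes a bromodomain protein of the non-canonical BAF complex (ncBAF), a chromatin remodeller that shares its ATPase and several subunits with the canonical BAF and PBAF complexes.

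Over the gated cells 7310958 UMIs were summed for the knockout library and 5308697 for the control library. Their median was 21946 and 20710.5 UMIs and 5245 and 4992.5 genes per cell, against 36927 and 39321 UMIs in all other kept cells. Female cells were called from Xist and 4 Y-linked genes, and male cells from low Xist alone. By these rules 176 gated knockout cells (54.3%) and 59 gated control cells (23.8%) were female, and 144 and 188 were male. Values within each sex are given for many genes below, and the part of sex in the other differences was not tested. The libraries shared 16 barcodes, of which 0 were gated. Scrublet, a doublet caller, marked 1 gated knockout cell and 0 gated control cells, and 3 and 1 carried transcripts of both sexes; these cells were kept, and leaving them out is among the alternatives.

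Outside the gate genes, the gated cells carried the profile of immature blood cells in each library. Hoxa9, a homeobox factor of stem and progenitor cells, stood at 72.1 and 95.1 CPM (UMIs of the gene scaled to a total of 1000000 over the summed cells) in gated knockout and control cells and at 1.09 and 1.67 CPM in all other kept cells. The cytokine receptor Flt3 stood at 80.7 and 89.5 CPM against 4.52 and 6.42. Cd34, Meis1 and Mycn were higher inside the gate in both libraries, by a log2 ratio of 3.44 in the knockout and 2.80 in the control for Cd34, 3.06 in the knockout and 3.54 in the control for Meis1 and 4.84 in the knockout and 5.59 in the control for Mycn. Mllt3, a stem cell regulator also used by erythroid cells, was not (-0.34 in the knockout and -0.13 in the control). The receptor Kit, on which the cells were sorted, and Ptprc, which encodes CD45, were also higher inside the gate, by 1.63 in the knockout and 1.24 in the control for Kit and 2.66 in the knockout and 2.49 in the control for Ptprc. Erythroid Gata1 (-2.38 in the knockout and -2.14 in the control) and the neutrophil elastase gene Elane (-5.04 in the knockout and -5.76 in the control) were lower. Mpo, which the gate caps, was lower by less (-0.56 in the knockout and -0.58 in the control). A Mpo UMI was found in 68.2% of gated knockout and 80.2% of gated control cells. The mast cell gene Cpa3 was higher inside the gate (1.85 in the knockout and 0.62 in the control). Most of these markers fit the label of the gate, while Mllt3, Mpo and Cpa3 fit it less well. Since the cells were chosen on their own transcripts, the comparison is a description with no test. In the control library the 12 genes highest inside the gate over the other kept cells were partly hepatocyte genes from 2 cells, described next.

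Markers of cells that do not belong to the gate were few with 1 exception. The 10 hepatocyte genes summed to 30.8 CPM in gated knockout cells and 1092 CPM in gated control cells, and 2 control cells held 97.4% of the latter. Alb, which encodes serum albumin, had 3 UMIs over the gated knockout cells and 1005 over the gated control cells. These 2 cells were kept, and results are also given without them. The 15 endothelial genes summed to 400.5 and 459 CPM, of which Egfl7, also a gene of blood stem cells, gave 232 and 237, while 0 knockout cells and 1 control cell held at least 3 UMIs of the defining vessel genes Cdh5, Plvap, Stab2 and Lyve1. Stromal genes summed to 12.3 and 18.8 CPM with 6 and 4 of 10 at 0, macrophage genes to 6.43 and 14.3 CPM with 3 and 0 of 10 at 0, and T and NK cell genes to 0.684 and 6.22 CPM with 8 and 6 of 10 at 0. Col1a1, a defining stromal gene, had a UMI in 0 gated cells of either library. Their part in the differences below was not tested beyond the values without the 2 hepatocyte-rich cells.

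The gate held a larger share of the knockout library, and the direction turned at the limit on Mpo and Prtn3. Gated cells made up 4.63% of the kept knockout library (4.15 to 5.15) and 3.49% of the kept control library (3.08 to 3.95), a ratio of 1.32 (1.13 to 1.56). Before any lineage limit, 543 knockout cells (7.76%, 7.14 to 8.41) and 700 control cells (9.86%, 9.18 to 10.6) held at least 3 marker UMIs, a ratio of 0.787 (0.707 to 0.876) in the opposite direction. The limit on Klf1 then removed 81 and 89 of them, that on Pf4 3 and 5, and that on Mpo and Prtn3 132 and 356. The limit on Irf8 and Ly86 removed 2 and 1, that on the mast cell genes 1 and 1, and that on S100a8 and S100a9 0 and 0. Cells with at least 3 marker UMIs, at least 30 UMIs of Mpo and Prtn3 and at most 2 of Klf1 made up 1.89% of the knockout (1.58 to 2.23) and 5.03% of the control library (4.53 to 5.56), a ratio of 0.375 (0.308 to 0.457). Mpo encodes myeloperoxidase and Prtn3 a serine protease of neutrophil granules. In the rest of the kept cells Mpo stood at 253 and 466 CPM, so the gene that set the limit itself differed between the libraries.

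By the gate's own marker sum, the ratio of shares was larger among cells with few marker UMIs, which is a description. Adgrl4, a gene of that sum, stood at 380 CPM in gated knockout and 519 CPM in gated control cells. In all other kept cells it stood at 5.30 and 11.3 CPM, so a gene that set the strata itself differed between the libraries. With 3 to 4 marker UMIs there were 59 knockout and 31 control cells, a ratio of shares of 1.93 (1.25 to 2.98), and with 5 to 9 there were 78 and 39, a ratio of 2.03 (1.38 to 2.97). With 10 or more there were 187 and 178, a ratio of 1.07 (0.870 to 1.30) whose interval includes 1. The median marker sum was 11 in gated knockout and 16 in gated control cells, and 54.6% and 60.9% of cells held all 3 markers. Among cells that met the lineage limits, 53 knockout and 25 control cells had 2 marker UMIs, just outside the gate, and 38 and 16 had 3, just inside it. With the rest of the gate met, 16 and 22 cells had 25 to 29 UMIs of Mpo and Prtn3 and 13 and 15 had 30 to 34. Within female cells the ratio of gated shares was 1.17 (0.873 to 1.56) and within male cells 1.56 (1.26 to 1.93). With each cell thinned to the same depth before the gate, the ratio was 1.18 (0.975 to 1.43), an interval that includes 1, over the 6617 knockout and 6779 control cells deep enough to thin.

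**Figure D1:**
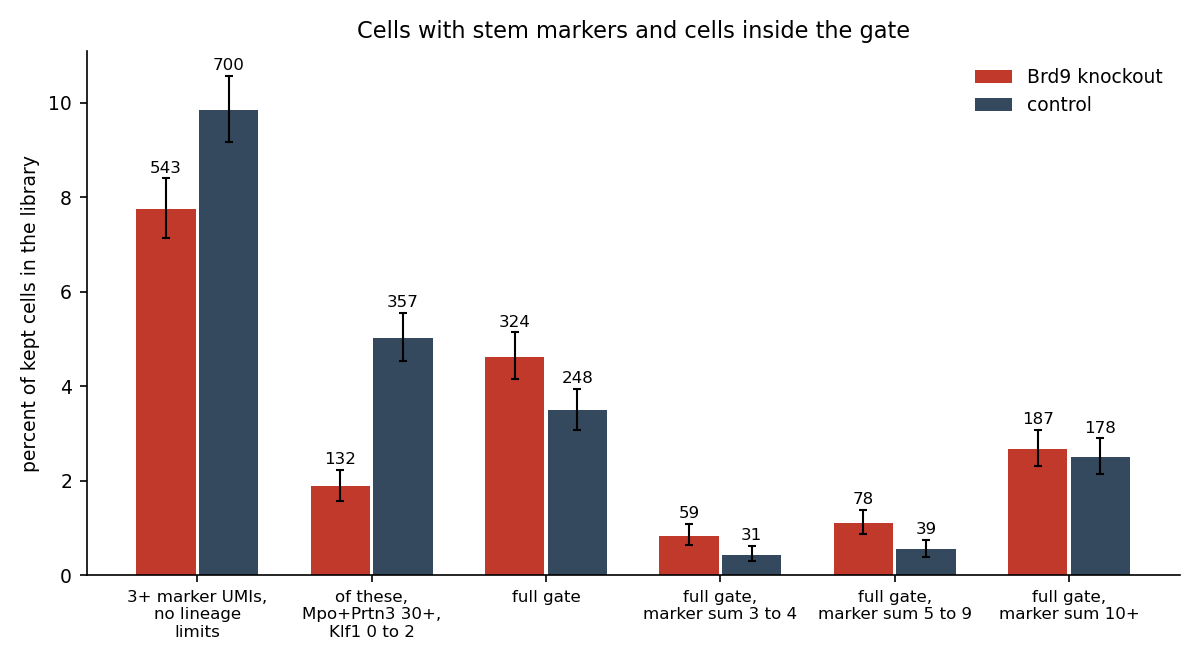
Share of kept cells (percent, vertical axis) at each form of the gate in the knockout (red) and control (dark) libraries, with exact 95% intervals as bars and the number of cells above each column. Marker-positive cells without lineage limits were more frequent in the control library (700 against 543), gated cells in the knockout library (324 against 248), and cells with 10 or more marker UMIs nearly level (187 against 178).

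Knockout and control are compared through the log2 ratio of their CPM, positive where the knockout was higher. Levels are given as knockout against control, and values with no unit are log2 ratios, with the interval after them. Brd9 itself was lower in gated knockout cells. It stood at 8.48 CPM (62 UMIs) in the knockout and 26.2 CPM (139 UMIs) in the control, a log2 ratio of -1.63 (-2.08 to -1.18), and gave -1.52 within female and -1.94 within male cells. After thinning each cell to 18631 UMIs, a Brd9 UMI was found in 13.3% (9.09 to 18.5) of 218 gated knockout cells and 38.5% (30.5 to 47.0) of 143 gated control cells, where 106 and 105 cells were too shallow to use. The unthinned shares over all gated cells were 16.4% and 40.3%. The gene spans chromosome 13 from 73937811 to 73960895 in mm10 (ENSMUSG00000057649). Reads of a 3' library need not fall in the floxed part, so the remaining UMIs do not measure intact transcript.

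Of 6625 genes with a mean of at least 20 CPM over the 2 gated libraries, called measured genes, 66 (0.996%) were at least 0.5 higher and 84 (1.27%) at least 0.5 lower in the knockout on the log2 scale. The median over all of them was 0.03, the 5th and 95th percentiles were -0.26 and 0.33, and 59.3% lay above 0. These shares over all measured genes are the background for each list count below. In 27 of the lower and 4 of the higher genes, a single cell held over 10% of the UMIs or under 10% of cells had a UMI in the library with the higher level. Without the 2 hepatocyte-rich cells, 72 (1.09%) of the same genes were higher and 71 (1.07%) lower. Of the 66 higher genes 64 were above 0 in both sexes, and of the 84 lower genes 76 were below 0 in both. The genes were chosen on the sum over cells of both sexes, which favours the same sign in each, so these counts are a description. The share of all measured genes with the same sign in both sexes is not given. Within female cells alone, where the control has 59 cells, 5.22% of measured genes were at least 0.5 higher and 3.43% lower, and within male cells 1.51% and 1.75%.

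**Figure D2:**
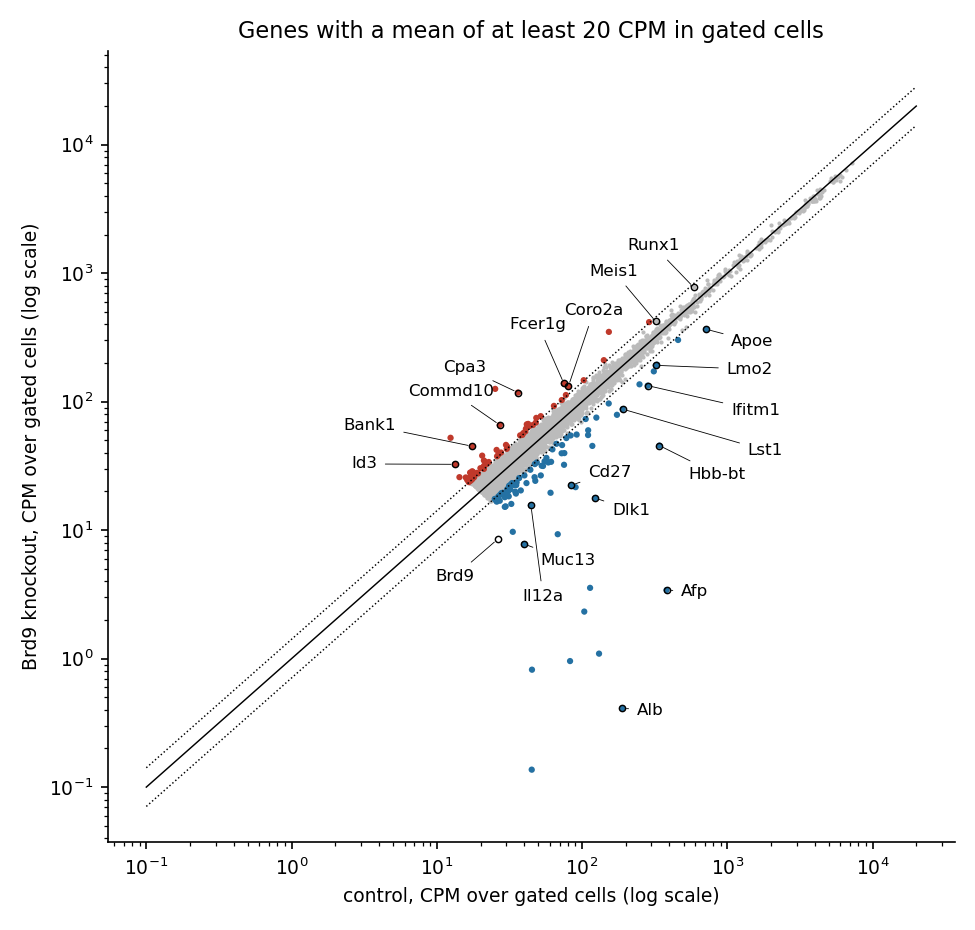
Level of each gene in CPM (log scales) summed over gated control cells (horizontal axis) and gated knockout cells (vertical axis), for 6625 measured genes and Brd9, which is below the level minimum. The solid line marks equal levels, dotted lines a log2 ratio of 0.5 either way, red and blue points the 66 higher and 84 lower genes, and outlined points the labelled genes. Most genes lie between the dotted lines, and the hepatocyte genes Alb and Afp stand far below through 2 control cells.

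The other measured subunits that are specific to ncBAF were higher. Bicral, a scaffold of the complex, stood at 46.10 CPM in gated knockout cells and 29.95 CPM in gated control cells (0.62, 0.35 to 0.90), and its paralog Bicra at 44.7 CPM in gated knockout cells and 30.5 CPM in gated control cells (0.55, 0.28 to 0.83). Bicral gave 0.51 and 0.65 and Bicra 0.88 and 0.44 within female and male cells. With cells thinned before the gate Bicral gave 0.48 and Bicra 0.31, and without lineage limits 0.56 and 0.42. Of the canonical BAF and PBAF subunits, 6 of 10 measured members were above 0 and 4 below, with 0 at least 0.5 higher or lower, from Dpf2 at -0.13 to Phf10 at 0.16. Of the subunits that ncBAF shares with them, 4 of 11 measured members were above 0 and 7 below, with 0 at least 0.5 higher or lower. The ATPases Smarca4 and Smarca2 gave -0.10 and -0.18, and the small subunits Bcl7a and Bcl7b 0.38 and 0.38.

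The 12 highest genes in gated knockout cells were taken among those with a UMI in at least 10% of cells and no more than 10% of UMIs in 1 cell, in the library with the higher level, and were of mixed function. Cpa3 and Bank1, which exceed the limit on UMIs in 1 cell, gave 1.70 and 1.36 and are described with their lineages. Id3, an inhibitor of helix-loop-helix transcription factors (chromosome 4 from 136143497 to 136145755 in mm10), stood at 32.6 CPM in gated knockout cells and 13.4 CPM in gated control cells (1.28, 0.90 to 1.69), and was lower in the knockout in all other kept cells (-0.80). A single control cell held 15.5% of the control UMIs of Id3. Commd10, a COMM domain protein, stood at 65.9 CPM in gated knockout cells and 27.1 CPM in gated control cells (1.28, 1.01 to 1.56) and gave 1.74 and 1.18 in female and male cells and 1.19, 1.45 and 1.30 with 3 to 4, 5 to 9 and 10 or more marker UMIs. After thinning, a Commd10 UMI was found in 63.3% (56.5 to 69.7) of gated knockout and 37.1% (29.1 to 45.5) of gated control cells (68.2% and 41.5% unthinned). The knockout share of Commd10 was also the larger in cells with at least 3 Klf1 UMIs, at 38.2% and 27.8%.

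Fcer1g, the signalling chain of Fc receptors in myeloid and mast cells, stood at 139 CPM in gated knockout cells and 75.0 CPM in gated control cells (0.89, 0.72 to 1.06). Coro2a, an actin-binding coronin, stood at 132 against 80.6 CPM (0.71, 0.55 to 0.88), and Lpcat2, a phospholipid acyltransferase, at 38.0 against 20.5 CPM (0.89, 0.56 to 1.22). These 3 genes depended on the limits of the gate, since without lineage limits they gave 0.14, 0.25 and 0.06. Tuba8 (an alpha-tubulin) gave 0.85, Fanca (Fanconi anaemia core complex) 0.73, Cox4i2 (a cytochrome c oxidase subunit) 0.73, Hip1 (an endocytic adaptor) 0.71, Gfod1 0.71, the alpha-globin gene Hba-a2 0.70 and Dock5 (a Rac exchange factor) 0.68. Ranked by the weaker of the 2 sexes, Zfp143, a zinc finger factor bound at many promoters, and Cep89, a centrosomal protein, joined the highest, with 0.79 and 0.66 for Zfp143 and 0.55 and 0.62 for Cep89, but 0.30 and 0.35 without lineage limits. All 12 highest genes stayed above 0 under the 18 alternatives run on single genes, but 6 were still at least 0.5 higher without lineage limits and 7 when cells were thinned before the gate. Those 6 were Id3, Commd10, Tuba8, Cox4i2, Hip1 and Dock5, and after thinning Hba-a2 gave 0.10 and Gfod1 0.22. Among cells with 10 or more marker UMIs Tuba8 gave 0.45 and Gfod1 0.49.

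The 12 lowest genes in gated knockout cells under the same limits included a globin, surface molecules of immature and lymphoid cells and interferon-related genes. These limits leave out Dlk1, H19 and the measured genes of the hepatocyte list. Hbb-bt, an adult beta-globin, stood at 45.5 CPM in gated knockout cells and 341 CPM in gated control cells (-2.90, -3.08 to -2.73), while its near-identical neighbour Hbb-bs gave 49.0 against 40.9 CPM (0.26, 0.01 to 0.51) and Hba-a1 32.0 against 26.7 CPM (0.26, -0.05 to 0.57). The sources used here do not say how reads shared by such copies were divided, so the split between copies is uncertain. Hbb-bt was lower in the other kept cells too (302 against 1136 CPM, -1.91). After thinning, a Hbb-bt UMI was found in 31.7% (25.5 to 38.3) of gated knockout and 74.1% (66.1 to 81.1) of gated control cells (36.1% and 79.4% unthinned). In cells with at least 30 UMIs of Mpo and Prtn3 and at most 2 of Klf1, granulocyte-monocyte cells that should lack globin, the thinned shares were 21.4% and 56.0%, with median depths of 29946 and 32030.5 UMIs. The share with a Hbb-bt UMI was thus lower in the knockout also among cells that should hold none. For Hba-a1 the thinned shares were 42.7% and 41.3% of gated cells and 44.1% and 35.4% of those granulocyte-monocyte cells. The part of free globin RNA in these values was not tested.

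Cd27, a tumour necrosis factor receptor on multipotent and lymphoid-primed progenitors (chromosome 6 from 125232622 to 125237010 in mm10), stood at 22.4 CPM in gated knockout cells and 84.6 CPM in gated control cells (-1.91, -2.18 to -1.65). It was lower within female (-1.62) and male cells (-2.11) and in each marker stratum (-2.11, -1.85 and -1.78). After thinning, a Cd27 UMI was found in 28.0% (22.1 to 34.4) of gated knockout and 58.7% (50.2 to 66.9) of gated control cells, and in 1.61% and 2.15% of Klf1 cells, which should lack it. Without thinning the gated shares were 36.4% and 71.8%, and the Klf1 cells, at a median of 39452.5 and 41846 UMIs, gave 3.95% and 4.65%. Il12a, the p35 chain of interleukin-12, stood at 15.6 against 44.5 CPM (-1.51, -1.85 to -1.18) and Ltb, which encodes lymphotoxin beta, at 32.3 against 75.2 CPM (-1.22, -1.46 to -0.98). Muc13, a transmembrane mucin, stood at 7.80 against 39.9 CPM (-2.36, -2.81 to -1.93).

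Lst1, a transmembrane protein of leukocytes, stood at 87.5 against 190.4 CPM (-1.12, -1.27 to -0.98), and the interferon-induced membrane protein Ifitm1 at 133 against 283 CPM (-1.09, -1.20 to -0.97). Apoe, a lipid carrier, stood at 366 against 717 CPM (-0.97, -1.04 to -0.90). Palld, an actin-associated protein, stood at 55.0 against 110.0 CPM. Selenop, a selenium carrier, gave -0.96, the chromatin remodeller Chd3 -0.95 and the PYHIN family member Ifi203 -0.88. Ranked by the weaker sex, Serpina3g, a serine protease inhibitor, gave -0.98 and -0.99 and Gng11, a G protein subunit, -0.79 and -1.08, but -0.34 and -0.22 without lineage limits. All 12 lowest genes stayed below 0 under the same alternatives, and 9 were still at least 0.5 lower without lineage limits. The 3 that were not were Palld (-0.20), Selenop (-0.26) and Chd3 (-0.12). Selenop gave -0.38 among cells with 10 or more marker UMIs. Without the 2 hepatocyte-rich control cells Selenop gave -0.71 and Apoe -0.83.

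**Figure D3:**
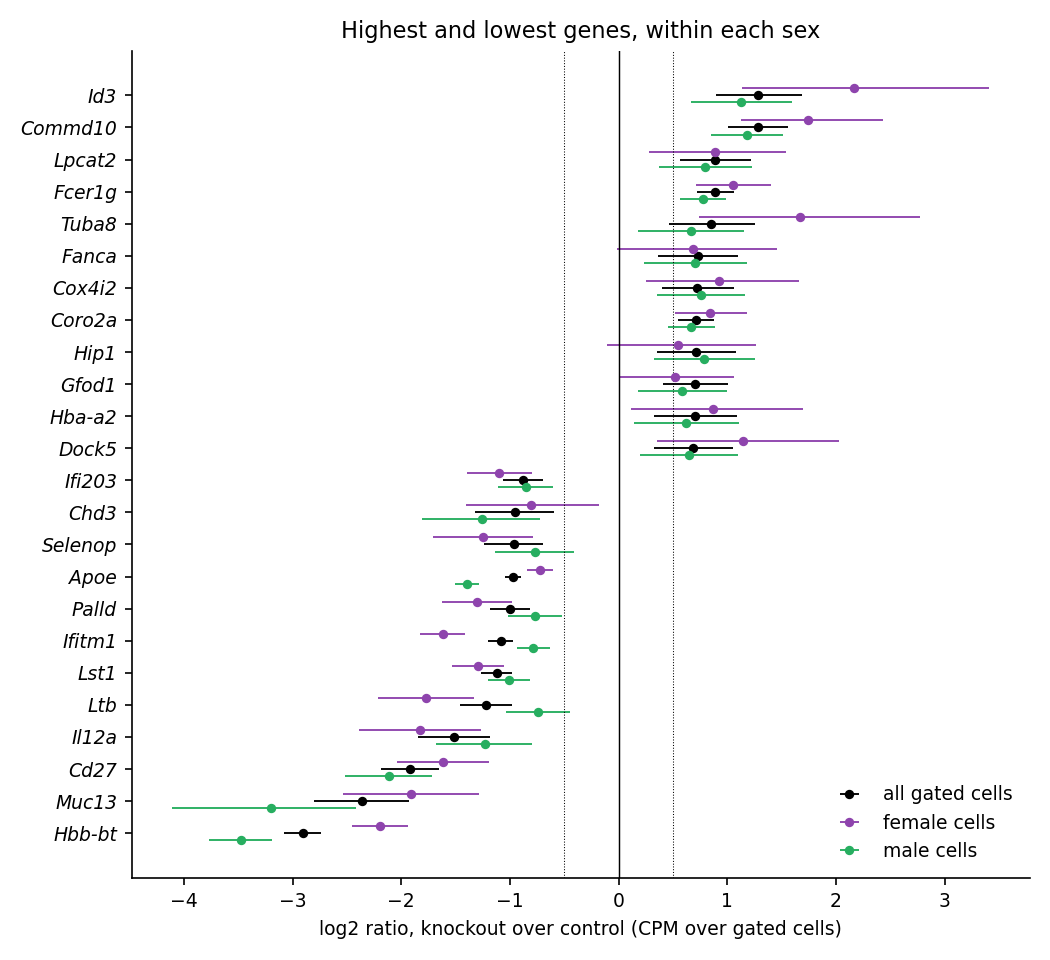
Log2 ratio of knockout over control (horizontal axis) for the 12 highest and 12 lowest genes by the naming rule, in all gated cells (black), female cells (purple) and male cells (green), with 95% counting intervals as lines. Dotted lines mark 0.5 either way. All 24 genes lie on the same side of 0 in both sexes, and the intervals are widest for female cells, of which the control has 59. The genes were chosen on the ratio over all gated cells, which favours the same side in each sex.

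Transcription regulators of stem cells went both ways. Of the list, 12 of 26 measured members were above 0 and 14 below, with 0 at least 0.5 higher and 2 at least 0.5 lower, with a median of -0.06 against 0.03 over all measured genes. Lmo2, a bridging subunit of the Tal1 and Gata complexes (chromosome 2 from 103957986 to 103981878 in mm10), stood at 192 CPM in gated knockout cells and 322 CPM in gated control cells (-0.75, -0.85 to -0.64). It gave -0.64 and -0.74 in female and male cells, -0.53, -0.63 and -0.70 in the 3 marker strata, and -0.08 in all other kept cells. Without lineage limits Lmo2 gave -0.20. Prdm16, a zinc finger factor needed to maintain stem cells, stood at 18.9 against 27.3 CPM (-0.53, -0.88 to -0.19), and gave 0.16 without lineage limits, the opposite direction. Prdm16 also gave -0.27 within female and -0.56 within male cells. Hoxa9 gave -0.40 over all gated cells, -0.97 in female and -0.06 in male cells, and Mycn gave -0.36, Mllt3 -0.32 and Hmga2, an architectural protein of fetal stem cells, -0.28. In the other direction, Runx1, a founding regulator of blood, stood at 776 against 588 CPM (0.40, 0.34 to 0.46), Meis1, a Hox cofactor, at 422 against 321 CPM (0.39, 0.31 to 0.48) and the corepressor Cbfa2t3 at 188 against 141 CPM (0.41, 0.28 to 0.54). Within female and male cells Runx1 gave 0.27 and 0.33, Meis1 0.53 and 0.26 and Cbfa2t3 0.35 and 0.40. Zbtb16 gave 0.45, but 1 control cell held 25.7% of its control UMIs. Gata2, Erg, Tal1 and Fli1, further members of the stem cell network, gave 0.21, -0.02, 0.01 and 0.10.

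The surface and signalling genes of stem cells lay mostly below 0. Of these, 5 of 23 measured members were above 0 and 18 below, with 0 at least 0.5 higher and 4 at least 0.5 lower. The median was -0.21. Of all measured genes, 59.3% lay above 0 and 1.27% were at least 0.5 lower. The 4 lower were Ifitm1, Apoe, Ifitm3 and the cation channel Trpc6 (-0.58, -0.85 to -0.30), of which Trpc6 gave 0.18 without lineage limits and -0.04 within female and -0.91 within male cells. Ifitm3 gave -0.42 without lineage limits. The list median was -0.04, -0.08 and -0.09 in the 3 marker strata, nearer 0 than over all gated cells. The integrin Itga6 stood at 44.6 against 43.1 CPM and the signalling lymphocyte activation molecule Cd48 at 136 against 157 CPM. Cd34 (279 against 241 CPM, 0.21, 0.10 to 0.31) and Kit (187 against 155 CPM, 0.27, 0.14 to 0.40) were the members above 0 that are used to sort these cells. Of the gate genes, Adgrl4 gave -0.45, Mecom -0.18 and Hlf -0.12, which the marker threshold constrains. Procr, the receptor used to sort the most immature cells, had 8.48 and 11.7 CPM and was below the level minimum.

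Of the genes of the fetal program, the 4 beyond the threshold were imprinted genes. Of the list, 2 of 11 measured members were above 0 and 9 below, with 0 at least 0.5 higher and 4 at least 0.5 lower. Of all measured genes, 59.3% lay above 0 and 1.27% were at least 0.5 lower. The list median was -0.19, against 0.03 over all measured genes. The gate gene Mecom is 1 of the 9 below, and the marker threshold constrains its value. Dlk1, a Notch-family ligand, stood at 17.8 CPM in gated knockout cells and 123 CPM in gated control cells (-2.79, -3.08 to -2.52), the noncoding RNA H19 at 9.30 against 68.0 CPM (-2.87, -3.27 to -2.49), the growth receptor adaptor Grb10 at 39.8 against 75.5 CPM (-0.92, -1.15 to -0.70) and the cyclin-dependent kinase inhibitor Cdkn1c at 24.2 against 47.7 CPM (-0.98, -1.26 to -0.69). In each of them 1 control cell held a large part of the control UMIs, 13.3% for Dlk1, 29.1% for H19, 15.2% for Grb10 and 15.8% for Cdkn1c. A Dlk1 UMI was nevertheless found in 22.9% (17.5 to 29.1) of knockout cells after thinning and in 65.7% (57.3 to 73.5) of the control cells (26.9% and 61.3% unthinned). Hepatoblasts express Dlk1 and H19, and without the 2 hepatocyte-rich control cells Dlk1 gave -2.42, H19 -1.68, Grb10 -0.64 and Cdkn1c -0.50. Without lineage limits Grb10 gave -0.21 and Cdkn1c 0.06, and with 10 or more marker UMIs -0.33 and -0.26. Among the RNA-binding proteins of the fetal state, Lin28b gave 0.25, Igf2bp1 0.11, Igf2bp3 -0.02 and Igf2bp2 -0.19.

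Low-level transcripts of the lineages, often called priming, were mixed. Of all measured genes, 59.3% lay above 0, 0.996% were at least 0.5 higher and 1.27% at least 0.5 lower. Of the lymphoid list, 4 of 13 measured members were above 0 and 9 below, with 1 at least 0.5 higher and 2 at least 0.5 lower. The median was -0.16, with -0.24 within female cells (4 of 13 above 0) and 0.003 within male cells (7 of 13 above 0). In the strata of 3 to 4, 5 to 9 and 10 or more marker UMIs it was -0.01, -0.05 and -0.10. Besides Cd27 and Il12a, Il2rg, the common gamma chain, gave -0.34, Flt3 -0.15 and Satb1, a chromatin organiser, -0.27, while Ikzf1, the Ikaros factor, gave 0.26. Bank1, a B cell scaffold protein, gave 1.36 (45.0 against 17.5 CPM), but 1 knockout cell held 15.8% of its knockout UMIs. Of the myeloid list, 5 of 11 measured members were above 0 and 6 below, with 1 at least 0.5 higher and 1 at least 0.5 lower, with Fcer1g the higher and the glutathione transferase Gstm1 (-0.80) the lower. Gstm1 gave -0.41 without the 2 hepatocyte-rich cells and -0.01 with 10 or more marker UMIs. Spi1, the PU.1 factor, gave 0.09, Csf3r, the granulocyte colony-stimulating factor receptor, -0.02 and lysozyme Lyz2 -0.34. Mpo (172 against 312 CPM, -0.86) and Prtn3 (149 against 197 CPM, -0.40), which the gate caps at 30 UMIs per cell, were lower.

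Of the erythroid list, 7 of 12 measured members were above 0 and 5 below, with 1 at least 0.5 higher and 1 at least 0.5 lower, namely Hba-a2 and Hbb-bt. Gata1 gave -0.13, carbonic anhydrase Car2 -0.24 and the transferrin receptor Tfrc 0.35. Of the megakaryocyte list, 8 of 13 measured members were above 0 and 5 below, with 1 at least 0.5 higher and 1 at least 0.5 lower, namely Plek, the platelet protein pleckstrin (0.52, 0.30 to 0.74), and Gng11 (-0.80, -1.05 to -0.55), with Mef2c at 0.09. Without lineage limits Plek gave 0.30 and Gng11 -0.22, and Plek gave 0.17 when cells were thinned before the gate. The integrin Itga2b gave -0.25, with 0.24 in female cells and -0.34 in male ones. Of the mast and basophil list 4 members were measured, and Cpa3, mast cell carboxypeptidase A, stood at 118 CPM in gated knockout cells and 36.2 CPM in gated control cells (1.70, 1.48 to 1.94). Its UMIs were concentrated, with 11.0% and 16.1% in 1 cell of each library. After thinning, a Cpa3 UMI was found in 36.2% (29.9 to 43.0) of gated knockout and 22.4% (15.8 to 30.1) of gated control cells, in 3.10% and 2.95% of Klf1 cells, and unthinned in 27.5% and 14.9% of gated cells. Cpa3 gave 0.40 without lineage limits and 0.61 when cells were thinned before the gate. Of the other mast and basophil genes measured, Kit gave 0.27, Slc18a2 0.10 (0.73 in female and -0.08 in male cells) and Srgn -0.17.

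Flt3 marks lymphoid-myeloid primed progenitors among the multipotent cells. After thinning, Flt3 UMIs were found in 48.2% (41.4 to 55.0) of gated knockout and 53.1% (44.6 to 61.5) of gated control cells. Klf1 cells, which should lack it, gave 1.45% and 1.15%, and the unthinned gated shares were 54.6% and 56.0%. Its level was 80.7 against 89.5 CPM (-0.15, -0.33 to 0.03). The intervals of the thinned shares overlapped. They cover counting error only, and with 1 library per genotype a difference in the share of Flt3 cells was not tested.

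Interferon-related and antigen-presentation genes lay mostly below 0, and Ifitm1, Ifitm3 and Ly6e among them are also in the surface list. Of the list, 3 of 16 measured members were above 0 and 13 below, with 0 at least 0.5 higher and 3 at least 0.5 lower, beside the 1.27% of all measured genes that were at least 0.5 lower. The median was -0.23, against 0.03 over all measured genes, and was -0.30 within female cells, -0.26 within male cells and -0.17 in all other kept cells. In the strata of 3 to 4, 5 to 9 and 10 or more marker UMIs it was 0.05, -0.22 and -0.23, so the lowest stratum did not lie below 0. Ifitm1 and Ifitm3 encode membrane proteins that restrict virus entry and are abundant in stem cells, and Ifitm3 stood at 137 CPM in gated knockout cells and 249 CPM in gated control cells (-0.87, -0.99 to -0.75). Ifi27 stood at 17.0 against 27.1 CPM (-0.68, -1.04 to -0.32, -0.47 without lineage limits) and Ifitm2 at 363 against 487 CPM (-0.42, -0.50 to -0.34). Bst2, which encodes tetherin, gave -0.39, the antiviral Trim30a -0.38, the class I light chain B2m -0.29 and the immunoproteasome subunit Psmb9 -0.22. The class I heavy chains H2-K1 and H2-D1 gave 0.01 and 0.12, and Ly6e 0.34. After thinning, an Ifitm1 UMI was found in 48.2% (41.4 to 55.0) of gated knockout and 72.7% (64.7 to 79.8) of gated control cells, with 3.44% and 6.60% in Klf1 cells (61.1% and 85.5% of gated cells unthinned).

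Since most of these members lay below 0, their promoters are shown for the interferon-stimulated response element, the site bound by interferon-activated transcription factors. The search was for GAAA 2 times with any 2 bases between, or on the other strand TTTC 2 times with any 2 bases between, in the 300 bases from 250 before to 50 after each RefSeq gene start (GRCm38.p6). Overlapping matches were allowed. The motif was found in 3.44% of all 32851 promoters, in 5 of the 13 measured members that have a promoter in the table and in 10 of 25 members of the whole list. The percentage counts promoters, while the list counts are of genes with the motif in any of their promoters, so they differ in unit. The 4 promoters of measured members with a match on the gene's strand are given 5′ to 3′ with the matching bases in capitals. A match is a description of the sequence and not evidence that a factor binds there.
Ifitm3 (chr7:141010695-141010994, minus strand): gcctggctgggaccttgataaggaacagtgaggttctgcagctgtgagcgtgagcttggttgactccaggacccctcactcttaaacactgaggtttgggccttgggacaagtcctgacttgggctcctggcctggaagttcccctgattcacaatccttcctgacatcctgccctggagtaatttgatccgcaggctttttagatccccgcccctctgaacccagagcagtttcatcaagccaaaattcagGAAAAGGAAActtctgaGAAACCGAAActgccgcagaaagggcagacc
Ifitm2 (chr7:140955912-140956211, minus strand): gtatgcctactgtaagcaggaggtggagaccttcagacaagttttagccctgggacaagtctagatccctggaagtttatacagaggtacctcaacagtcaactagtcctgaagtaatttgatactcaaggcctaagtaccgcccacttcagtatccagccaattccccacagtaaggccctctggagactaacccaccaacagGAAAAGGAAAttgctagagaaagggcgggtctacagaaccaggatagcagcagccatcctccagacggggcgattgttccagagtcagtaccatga
Bst2 (chr8:71537423-71537722, minus strand): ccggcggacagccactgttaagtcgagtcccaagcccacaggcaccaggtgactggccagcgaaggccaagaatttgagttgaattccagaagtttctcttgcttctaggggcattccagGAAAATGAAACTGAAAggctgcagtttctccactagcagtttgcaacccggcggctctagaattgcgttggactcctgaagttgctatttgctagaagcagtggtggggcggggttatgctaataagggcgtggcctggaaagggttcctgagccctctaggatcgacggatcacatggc
B2m (chr2:122147437-122147736, plus strand): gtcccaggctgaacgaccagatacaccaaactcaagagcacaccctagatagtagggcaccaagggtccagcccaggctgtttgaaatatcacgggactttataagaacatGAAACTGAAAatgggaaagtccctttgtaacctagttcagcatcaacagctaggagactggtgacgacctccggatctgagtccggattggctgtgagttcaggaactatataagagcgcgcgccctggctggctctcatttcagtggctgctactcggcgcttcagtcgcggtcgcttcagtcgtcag
Ifitm3 and Bst2 hold 2 overlapping or neighbouring matches each and Ifitm2 and B2m 1 each, and Trim30a holds a match on the other strand. Ifitm1, which was the lowest member, had 0 matches in its window, as had H2-K1, H2-D1, Tapbp, Psmb8, Psmb9, Ifngr1 and Ifi35. The Ifitm1 window ran from 140967826 to 140968125 on the plus strand of chromosome 7, while GENCODE M21 starts the gene at 140967221. The bases before that earlier start were not searched.

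Receptors of the niche and of cytokines had a median of -0.02. Of these, 9 of 19 measured members were above 0 and 10 below, with 1 at least 0.5 higher and 1 at least 0.5 lower. The 2 were both receptors of the transforming growth factor beta family, a pathway that holds stem cells in quiescence. The signalling receptor Tgfbr1 stood at 64.6 CPM in gated knockout cells and 43.3 CPM in gated control cells (0.58, 0.35 to 0.81), and the coreceptor Tgfbr3 at 55.5 CPM in gated knockout cells and 91.7 CPM in gated control cells (-0.72, -0.92 to -0.53). Tgfbr1 gave 0.32 and 0.61 and Tgfbr3 -0.49 and -1.11 within female and male cells. Without lineage limits Tgfbr1 gave 0.53 and Tgfbr3 0.10, so the direction of Tgfbr3 depended on the gate. Tgfbr2, which completes the signalling receptor, gave 0.12, Notch2 0.42, the tumour necrosis factor receptor Tnfrsf1a -0.45 and the insulin-like growth factor receptor Igf1r -0.03.

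The S-phase list lay mostly above 0, while the lists of G1 and of G2 and mitosis were nearer the 59.3% of all measured genes above 0. Of the S-phase genes, 34 of 38 measured members were above 0 and 4 below, with 0 at least 0.5 higher or lower, with a median of 0.13. Female cells gave a median of 0.21 and male cells 0.04, the latter close to the 0.03 of all measured genes. The replication genes Dscc1 and Fen1 gave 0.42 (0.12 to 0.73) and 0.35 (0.17 to 0.53), and Pcna gave 0.21. Of the genes of G2 and mitosis, 32 of 47 measured members were above 0 and 15 below, with 0 at least 0.5 higher or lower, with a median of 0.08, and Mki67 gave 0.15 and Top2a 0.05. With 10 or more marker UMIs 23 of the 47 were above 0. Of the regulators of G1, 11 of 16 measured members were above 0 and 5 below, with 0 at least 0.5 higher and 1 at least 0.5 lower, namely Cdkn1c. Myc gave 0.34, with 0.62 within female and 0.02 within male cells, and Cdk6, Ccnd1 and Ccnd3 gave -0.13, 0.26 and 0.18.

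Metabolic lists differed little, beside 59.3% of all measured genes above 0 and their median of 0.03. Of the glycolysis genes, 13 of 15 measured members were above 0 and 2 below, with 0 at least 0.5 higher or lower, with a median of 0.11. Phosphoglycerate mutase Pgam1 stood at 425 against 314 CPM (0.44, 0.35 to 0.52) and aldolase Aldoa at 513 against 407 CPM (0.34, 0.26 to 0.41), each with the same direction in both sexes, while the glucose transporter Slc2a1 gave -0.36. Of the nuclear genes of the respiratory chain, 23 of 30 measured members were above 0 and 7 below, with 0 at least 0.5 higher or lower, from -0.08 for Ndufa4 to 0.20 for Cox6a1. Of the cholesterol synthesis genes, 4 of 11 measured members were above 0 and 7 below, with 0 at least 0.5 higher or lower. Hmgcs1, an early enzyme of the pathway, gave -0.45 over all gated cells but -1.43 within female and 0.04 within male cells. Without the 2 hepatocyte-rich control cells Hmgcs1 gave -0.14, and the list median moved from -0.07 to 0.03.

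Lists of chromatin, survival and stress genes had members on both sides of 0, beside 59.3% of all measured genes above 0. Of the Polycomb genes, 10 of 15 measured members were above 0 and 5 below, with 0 at least 0.5 higher or lower, from the ubiquitin ligase Rnf2 (-0.30) to Suz12 (0.23), with Ezh2 at 0.07. Of CTCF and cohesin genes, 7 of 10 measured members were above 0 and 3 below, with 0 at least 0.5 higher or lower, with Ctcf at -0.06 and the cohesin release factor Wapl at 0.19. Of the BCL2 family, 6 of 7 measured members were above 0 and 1 below, with 1 at least 0.5 higher and 0 at least 0.5 lower, namely the pro-apoptotic Bid (40.2 against 27.7 CPM, 0.54, 0.25 to 0.83), while the survival genes Bcl2, Bcl2l1 and Mcl1 gave 0.19, 0.31 and -0.11. Bid gave 0.29 without lineage limits and 0.26 with cells thinned before the gate, and Bcl2 gave 0.71 in female cells and -0.07 in male ones. Of 4 measured p53 targets 2 were above and 2 below 0, and Mdm2 and Bax gave 0.02 and 0.03. Of the immediate early and stress genes, which respond to cell handling, 6 of 10 measured members were above 0 and 4 below, with 0 at least 0.5 higher or lower, with Junb at -0.46 and Jun at -0.07. Of the endothelial list, 1 of 5 measured members was above 0 and 4 below, with 0 at least 0.5 higher and 1 at least 0.5 lower, namely Pecam1 (34.1 against 61.2 CPM, -0.85, -1.09 to -0.60), which blood stem cells also express.

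**Figure D4:**
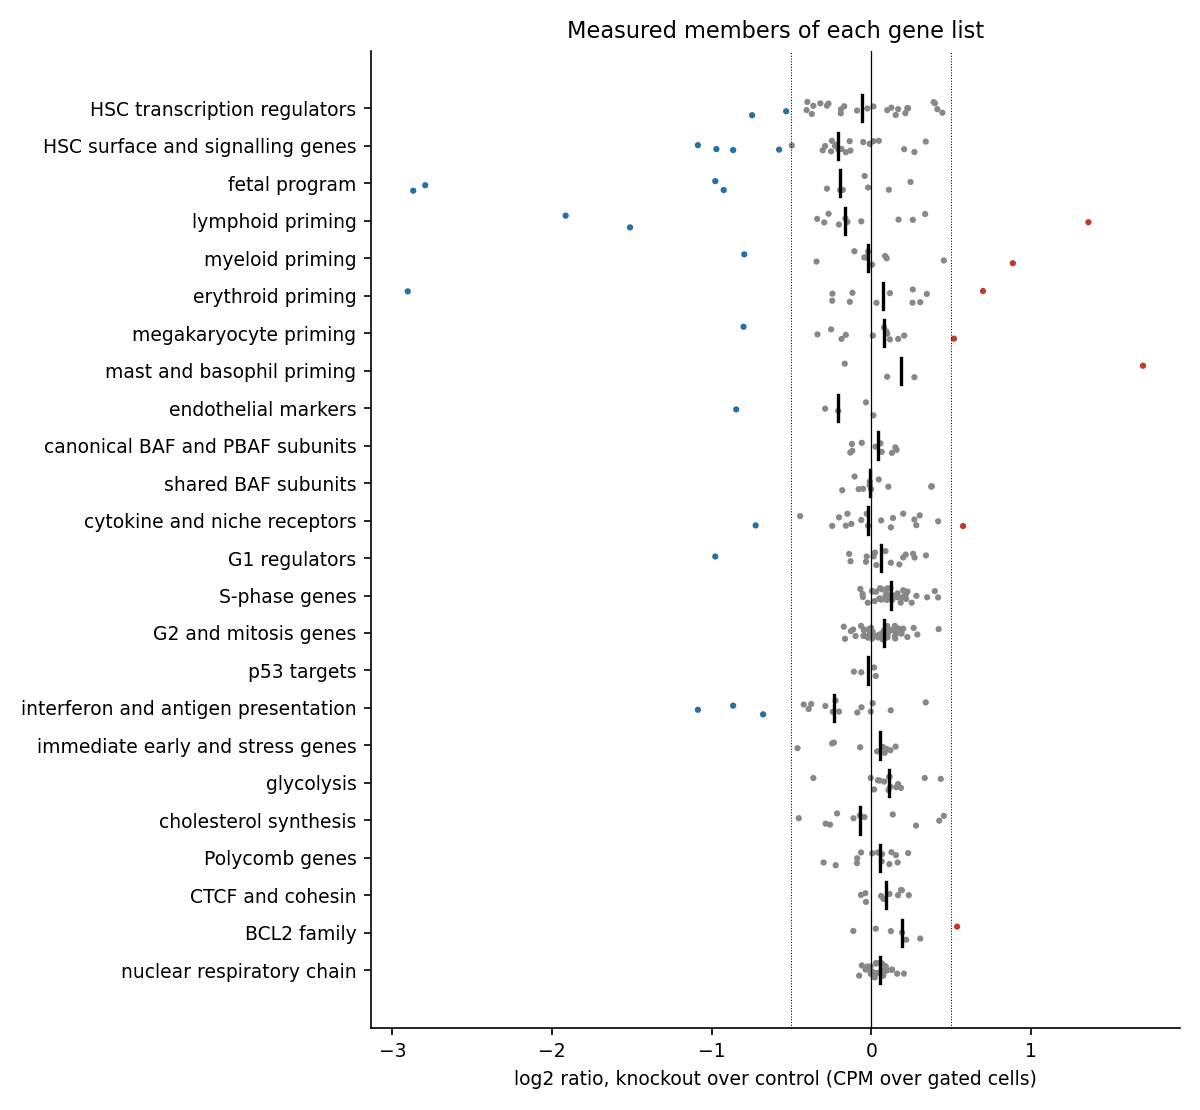
Log2 ratio of knockout over control (horizontal axis) for each measured member of the gene lists with at least 4 measured members, 1 point per gene; the hepatocyte list, set by 2 control cells, is left out. Black bars mark list medians, dotted lines 0.5 either way, and red and blue points members beyond them. Most members lie between the dotted lines, and the interferon, stem cell surface and endothelial lists have the lowest medians, between -0.23 and -0.21.

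The gated cells and all other kept cells differed in how several genes compared between the libraries. The difference of the 2 log2 ratios, gated minus other, was positive for Id3 (2.08, 1.68 to 2.49), the protease inhibitor Serpinb1a (1.46, 1.28 to 1.64), Parp8 (1.11, 0.93 to 1.29) and Hmga2 (0.91, 0.83 to 0.98). In marker-positive cells without lineage limits Serpinb1a gave -1.02 and Parp8 -0.62, near their values in the other kept cells (-1.12 and -0.61), and with cells thinned before the gate -0.10 and -0.18. Serpinb1a stood at 99.0 against 78.4 CPM in gated cells and at 28.3 against 61.6 CPM in the others, and Hmga2 at 497 against 602 CPM in gated cells and 35.2 against 80.1 CPM in the others. The same difference was negative for Chd3 (-1.25, -1.62 to -0.88), the splicing-related gene Sugp2 (-0.93, -1.16 to -0.70) and Lmo2 (-0.67, -0.77 to -0.56). Sugp2 stood at 39.7 against 72.3 CPM in gated cells and at 21.5 against 20.6 CPM in the others. Lmo2 stood at 299 against 316 CPM in the others, nearly level there. Trappc9, a trafficking subunit, gave -0.61 in gated cells and 0.06 in the others. Without lineage limits Chd3 gave -0.12, Sugp2 -0.44 and Trappc9 -0.22. By contrast Bicral, Commd10, Cd27, Muc13, Il12a and Hbb-bt had the same direction in both, with 0.65, 0.74, -1.39, -1.72, -1.95 and -1.91 in the other kept cells. The other kept cells are mostly erythroid, with 10629 of the 13529 holding at least 3 Klf1 UMIs, and 638 knockout and 1056 control cells held at least 30 UMIs of Mpo and Prtn3 with at most 2 of Klf1, so the mix of cells outside the gate was not the same in the libraries. Of 6116 genes with a mean of at least 20 CPM there, 20 (0.327%) were at least 0.5 higher and 52 (0.85%) at least 0.5 lower.

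**Figure D5:**
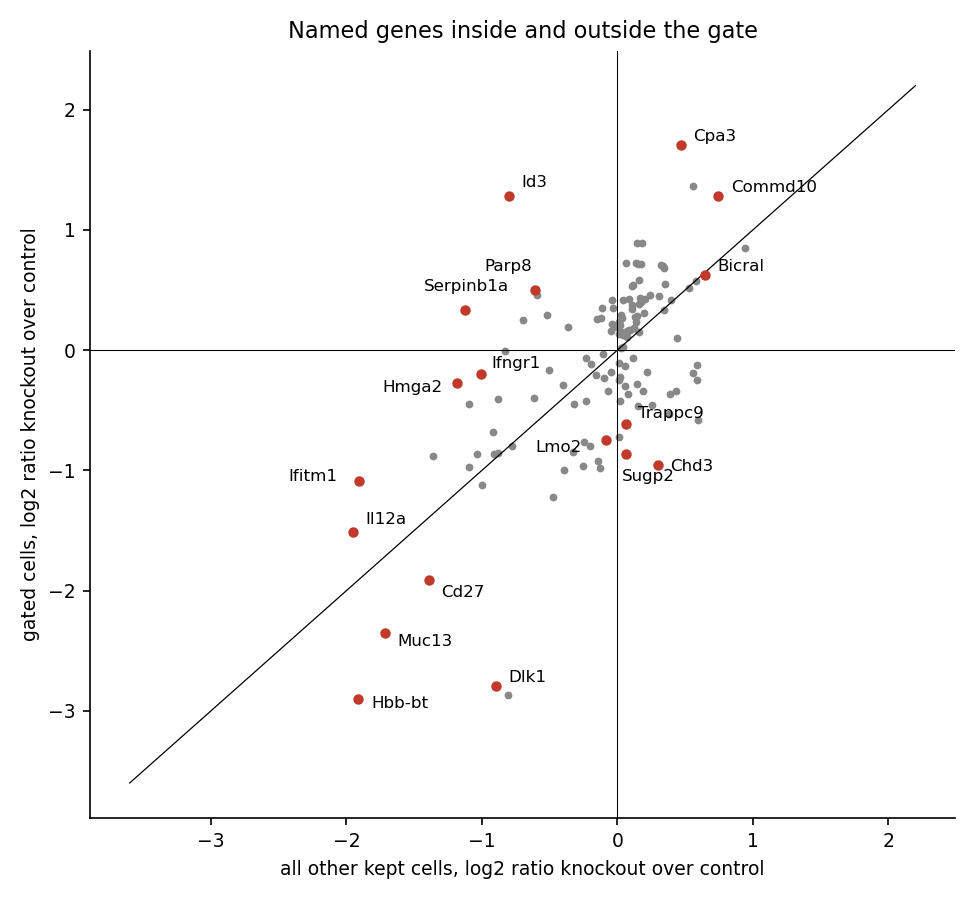
Log2 ratio of knockout over control in all other kept cells (horizontal axis) and in gated cells (vertical axis) for the named genes that are measured in the gate, without the hepatocyte genes and a few genes not reported here. Red points are labelled, and the line marks equal ratios. Id3 and Serpinb1a lie above 0 in gated cells and below 0 in the others, Chd3 the reverse, and Lmo2 and Sugp2 lie near 0 on the horizontal axis and below 0 on the vertical axis.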

How the data were processed

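Lin- c-Kit+ fetal liver cells of 1 Brd9 knockout and 1 control library were profiled with 10x 3' v3.1 chemistry. The authors deposited filtered UMI counts per gene and barcode, made with Cell Ranger 7.2.0 and mm10, per the submitters' processing notes; intron counting and the division of reads between copies are not given in the sources used here. The deposited counts hold 7289 knockout and 7399 control barcodes with 271350214 and 292972312 UMIs, of which 288 and 299 barcodes failed the cell filter. UMIs were summed per library over gated cells and scaled to CPM, with exact Poisson intervals, exact conditional intervals for ratios, exact binomial intervals for shares and log-normal intervals for ratios of shares. With 1 library per genotype no test was run; the threshold was a log2 ratio of 0.5 among genes with a mean of at least 20 CPM.

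Female cells held at least 3 Xist UMIs and at most 1 Y-linked UMI. Male cells held at most 1 Xist UMI, with no rule on Y-linked genes. For shares of cells with a UMI, cells were thinned to 18631 UMIs. The alternatives varied the gate, the cell filter, the scaling and the level minimum. In simulated data for 6625 genes, 50 genes each were set at 0.25, 0.5, 2 and 4-fold. The 95% intervals held the true ratio for 96%, 98%, 90% and 96% of them, and for 95.5% of unchanged genes. The simulated sums were Poisson counts, which leave out spread between cells, so these shares check the calculation alone.

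The members and lists were chosen with earlier results of these data known. Named genes were the 12 highest and 12 lowest ratios, overall and by the weaker of the sexes, with a UMI in at least 10% of cells and at most 10% of UMIs in 1 cell; up to 4 members of each list; the gate genes with Brd9, Bicra, Bicral, Kit and Ptprc; the 12 genes highest inside the gate in the control; and the 8 highest and 8 lowest differences from the other kept cells. Other list members, and genes of the label check, were named after their values were seen. A few genes under this rule are not reported here. Coordinates are from GENCODE M21, which holds 32158 of the 32285 gene identifiers. Python 3.11.15, numpy 2.4.6, scipy 1.17.1, pandas 2.3.3, scanpy 1.11.5, R 4.3.3 and edgeR 4.0.16 (scaling factors) were used.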

Additional observations from a re-analysis of the deposited data

Results flagged for a closer look

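The only results set apart are genes whose knockout over control log2 ratio pointed one way in gated cells and the other way in all other kept cells. With 1 library per genotype the difference between the 2 populations was not tested over samples, and any interval on it covers counting error only. Higher in gated knockout cells and lower in the others were Id3 (1.28 and -0.80), the cytotoxic granule gene Nkg7 (0.46 and -0.60), the protease inhibitor Serpinb1a (0.34 and -1.12), the ADP-ribosyltransferase family member Parp8 (0.50 and -0.61) and the kinase Map4k1 (0.30 and -0.52). Lower in gated knockout cells and higher in the others were Chd3 (-0.95 and 0.30), Prdm16 (-0.53 and 0.38), Trpc6 (-0.58 and 0.59), Nrgn (-0.34 and 0.43), Hmgcs1 (-0.45 and 0.26) and Mycn (-0.36 and 0.39). In marker-positive cells without lineage limits 8 of the 11 turned: Serpinb1a gave -1.02, Nkg7 -0.69, Parp8 -0.62, Map4k1 -0.14, Prdm16 0.16, Trpc6 0.18, Mycn 0.26 and Nrgn 0.15. Id3 (1.37) and Chd3 (-0.12) did not, and Hmgcs1 was near 0 there. Without the 2 hepatocyte-rich control cells Hmgcs1 gave -0.14 in gated cells, so its contrast with the other kept cells rests largely on those cells.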

How the results depend on the processing

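No paired analysis was possible because each genotype had 1 library, and for the same reason no replicate could be left out. The ratio of gated shares was within its interval in 10 of 13 alternatives, moved to 1.56 in male cells and 1.07 with at least 10 marker UMIs, and reversed to 0.787 without lineage limits. Of 61 named genes at least 0.5 higher or lower, 52 kept their direction under each alternative that gave a value. Without lineage limits Prdm16 (0.16), Trpc6 (0.18), Cdkn1c (0.059), Tgfbr3 (0.10) and S100a9 (0.37) reversed. The hepatocyte genes reversed when hepatocyte-rich cells dropped out, namely Alb (0.10), Ttr (2.32), Rbp4 (2.63) and Apoa1 (1.28) under the stricter cell filter, Ttr (1.33), Rbp4 (2.63) and Apoa1 (0.61) with those cells left out, and Ttr (0.88) with at least 10 marker UMIs.

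The count of genes at least 0.5 higher, 66 as reported, was 40 with at least 2 marker UMIs, 103 in a gate without Adgrl4, 34 without lineage limits, 313 in female cells, 104 in male cells, 110 with at least 10 marker UMIs, 1859 with no minimum level and 19 at a mean of at least 50 CPM. The count lower, 84 as reported, was 270 in female cells, 151 with globin, mitochondrial and ribosomal protein genes out of the total, 2221 with no minimum level and 33 at a mean of at least 50 CPM. Each alternative applied the level minimum to its own cells, so these counts rest on another set of genes than the shares in the report. Other counts were within 1.5 times of those reported. Scaling moved the median of measured genes to between 0.01 and 0.05.

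List medians moved without lineage limits to 0.21 for stem cell transcription regulators, -0.72 for myeloid priming, 0.11 for endothelial and -1.30 for hepatocyte markers. In female cells they moved to 0.094 for stem cell transcription regulators, -0.65 for lymphoid priming, 0.14 for immediate early genes and -0.46 for cholesterol synthesis. These medians rest on the members that met the level minimum within female cells, so they can differ from the female medians given above. With no minimum level they were -0.46 for the fetal program, 0.61 for mast and basophil priming and -0.23 for immediate early genes, and at a mean of at least 50 CPM -0.24 for erythroid priming. The hepatocyte median was -2.60 with at least 2 marker UMIs and -5.58 with cells scaled to the same total. The causes were not tested.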
